A study of Mus musculus with 2 samples.

Results

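The response of the wild-type mouse embryonic stem (ES) cell line V6.5 to retinoic acid (RA) was read from a single two-colour Agilent expression array. All genes of that array were taken: 44397 features, of which 33026 carried a gene symbol, gave ratios for 22485 genes, the same 22485 genes as in the series of 2 arrays. On the V6.5 array, the untreated wild-type cells had been kept on gelatin with leukaemia inhibitory factor (LIF), and the treated wild-type cells had LIF removed and 100 nM RA added for 48 h. The array of the other line, a Utx knockout (Utx is the X-linked H3K27 demethylase also called Kdm6a) treated in the same way, is used here only beside V6.5 values. LIF removal and RA came together in every treated sample, so their effects cannot be told apart, and below "after RA" stands for both.

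RA is a vitamin A derivative that enters the nucleus and binds receptors of the RAR family, which sit on DNA together with RXR partners and switch from repression to activation. In the embryo it sets the boundary between head and trunk, brings on Hox genes in the hindbrain and spinal cord and, in the germline, the entry into meiosis. LIF acts through STAT3 to hold mouse ES cells in the naive pluripotent state, and cells that lose LIF and receive RA leave that state.

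Each value is a log2 ratio of RA-treated (Cy5) over untreated (Cy3) RNA, the likely direction from the dyes named in the labels. A value of 1 is a 2-fold higher and a value of -1 a 2-fold lower level after RA. With 1 array and no dye swap there is no replicate, no test and no p-value for any gene, and "higher" or "lower" below describes this array. A bulk ratio also cannot separate a change in every cell from a change in the share of cells that express a gene. What the array does hold is several features for some genes. Among 5751 genes with 2 to 9 features the SD between features of a gene had a median of 0.14, and among 387 genes with 10 or more features the median was 0.084. This spread lies within 1 array and says nothing of the spread between cultures. Whether the features of a gene are repeats of 1 probe or different probes was not examined, so the 2 medians may not be like measures.

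Promoter sequence that holds the letters of the known RA element is shown first, because some genes that degrade or sense RA, such as Cyp26a1 and Rarb, had high ratios. RARs bind pairs of half-sites in direct repeat, and the classic element has a spacing of 5 bases. The letters GNTCA, found 2 times on 1 strand with 6 bases between (the common core of such an element, called DR5 here), were searched on both strands of the RefSeq promoter windows of build GRCm38.p6, which run from 250 bases before to 50 bases after a gene's start. Of 18 retinoid and Hox genes that were at least 2-fold higher and had a window, 2 held the pattern, the RA-degrading enzyme Cyp26a1 and the receptor Rarb. The 250 bases before each start are given 5′ to 3′ on the strand of the gene, with the half-sites in capitals.
Cyp26a1 (chr19:37697558-37697807, plus strand): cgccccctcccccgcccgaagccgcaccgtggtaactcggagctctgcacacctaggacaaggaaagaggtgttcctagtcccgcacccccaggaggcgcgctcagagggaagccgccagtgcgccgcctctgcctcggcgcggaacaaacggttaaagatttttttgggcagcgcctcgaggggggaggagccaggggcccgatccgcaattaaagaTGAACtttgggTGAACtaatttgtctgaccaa
Rarb (chr14:16575477-16575726, minus strand): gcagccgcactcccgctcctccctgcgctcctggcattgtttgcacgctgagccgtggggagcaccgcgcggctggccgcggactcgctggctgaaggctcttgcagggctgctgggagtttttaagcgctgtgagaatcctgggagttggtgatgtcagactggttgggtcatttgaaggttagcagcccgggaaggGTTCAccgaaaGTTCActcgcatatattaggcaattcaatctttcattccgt
With the base before the start as position -1, the pair in Cyp26a1 spans -32 to -17 and reads on the strand opposite to the gene, and the pair in Rarb spans -52 to -37 and reads on the strand of the gene. Cyp26a1 had a log2 ratio of 3.54, an 11.7-fold higher level after RA, and Rarb one of 2.38. The 2 features of Rarb lay apart, at 1.49 and 3.27, both above 0.

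Over all RefSeq windows the same letters were rare, and they were found beside genes of both directions. They occurred in 283 of 32851 windows, which is 0.861%. Among measured genes with a window, they were present for 6 of 394 genes at least 2-fold higher and for 6 of 259 genes at least 2-fold lower, that is 1.52% and 2.32%, against 0.781% of all 17162 such genes. With 3 bases between the half-sites (a spacing of 2) the shares were 1.52% of the higher and 0.0% of the lower genes, against 0.996% of all. With 2 bases between them (a spacing of 1) they were 1.02%, 0.772% and 1.26%. A match describes these letters in a window that reaches only 250 bases upstream, and says nothing about receptor binding.

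At the bound of 2-fold, 566 genes (2.52% of all) were higher and 358 (1.59%) were lower after RA. At 1.5-fold the counts were 1504 (6.69%) and 1205 (5.36%), so 88.0% of genes stayed within 1.5-fold. The tail of high ratios was the longer one. At 4-fold or more there were 126 higher and 27 lower genes, at 8-fold 54 and 4, and at 16-fold 23 and 0. To show the spread where little message is known in ES cells, 1509 genes for olfactory, vomeronasal and taste receptors, defensins and keratin-associated proteins were set beside all genes. They had an SD of 0.23 against 0.47 over all genes, and 14 of them (0.928%) were at least 2-fold higher and 0 were lower. The largest ratios in these families were 2.75 for the beta-defensin Defb25 and 2.20 for Olfr1372-ps1, and Olfr713 had 1.56 with 10 features between 1.37 and 1.70. High ratios thus occurred among these genes at 0.928% against 2.52% of all genes, and low ones did not occur among the 1509.

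**Figure D1:**
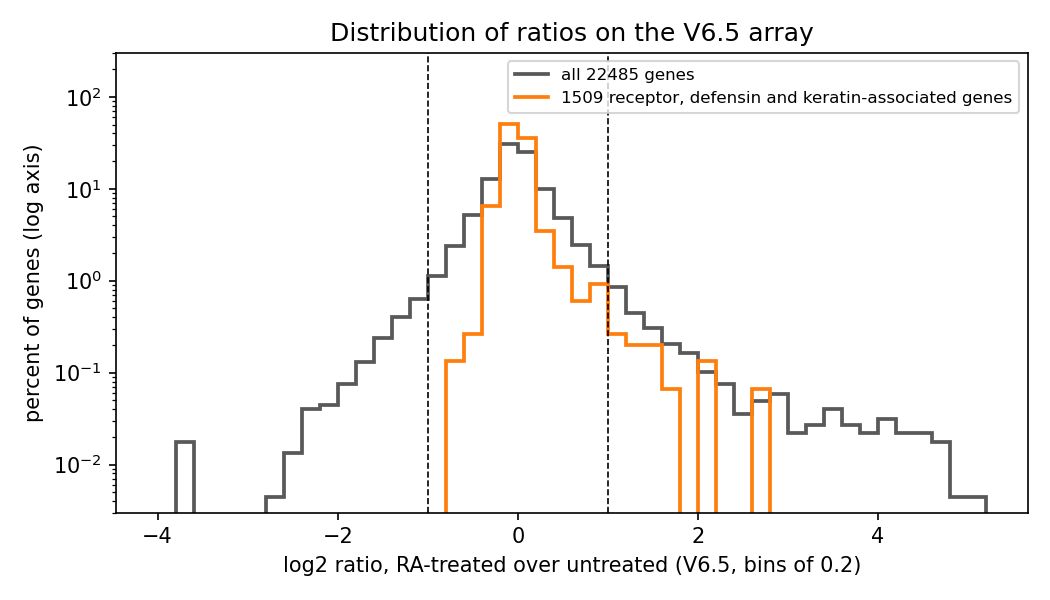
Percent of genes (log axis) in bins of 0.2 of the log2 ratio on the V6.5 array, for all 22485 genes (grey) and for 1509 receptor, defensin and keratin-associated genes (orange), with dashed lines at 2-fold. The orange genes end at -0.73 on the left and reach 2.75 on the right, while all genes run from -3.71 (Klk1b5) to 5.10 (Gm4340).

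The genes that handle RA itself went different ways. The breakdown arm stood high: Cyp26a1 as given above and Cyp26b1 at 1.98, enzymes that oxidise RA, while their relative Cyp26c1 had -0.05. Stra6, the membrane receptor that takes up retinol from its carrier, had 2.53, and Dhrs3, which turns retinaldehyde back into retinol, had 1.78. Synthesis did not share this. Of the retinaldehyde dehydrogenases that make RA, Aldh1a2 had 0.37, Aldh1a1 0.02 and Aldh1a3 -1.13. Among genes named as retinol dehydrogenases, whichever way their enzymes act, Rdh10 had -0.05 and Rdh11 -0.96. In all, 4 of 26 measured genes of retinoid metabolism and uptake were at least 2-fold higher and 1 was lower, against 2.52% and 1.59% of all genes. The list's median was -0.02, against -0.02 over all genes.

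Among the receptors and carriers 1 of 9 was past 2-fold, Rarb, while over all genes 2.52% were higher and 1.59% lower. The other RARs had -0.20 (Rara) and 0.50 (Rarg). The RXR partners had 0.23 (Rxra), 0.24 (Rxrb) and 0.86 (Rxrg). The carrier Crabp2, which brings RA to the nucleus, had 0.67, and Crabp1 had -0.04. Of 8 coregulators of nuclear receptors, the acetyltransferase Crebbp was past 2-fold at 2.04, on 1 feature, while its close relative Ep300 had -0.35. Among 23 other nuclear receptors, Nr6a1, an orphan receptor that represses Pou5f1 during differentiation, had 1.19. Nr2f1, an orphan receptor that antagonises RARs, had 0.99, and the orphan receptor Nr4a1 was lowest at -0.85.

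Genes known from earlier work to be induced by RA in ES and embryonal carcinoma cells were listed with results of these data known. Of 23 measured members 7 were at least 2-fold higher and 1 lower, against 2.52% and 1.59% of all genes, with a median of 0.57. Stra8, required for entry into meiosis, had 4.37, a 20.7-fold higher level. The transcriptional regulators Zfp703 and Tshz1 had 2.04 and 1.22, and Arg1, the liver arginase, had 1.78. The member that was lower was the transglutaminase Tgm2, at -1.24. Gata6 and Gata4, factors of extraembryonic endoderm, had 0.57 and 0.06, and the endoderm matrix genes Lama1, Lamb1 and Col4a1 had -0.76, -0.15 and -0.00.

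Hox genes, which give segments of the body axis their identity, were highest in HoxB. In HoxB, 9 of 10 measured genes were at least 2-fold higher, against 2.52% of all genes, and the median was 1.90. Hoxb2 had the highest ratio at 4.45, 21.9-fold. Hoxb4 followed at 3.42, Hoxb1 at 3.10 and Hoxb5 at 2.95. Hoxb1 is the best measured of these, with 10 features between 2.87 and 3.26 and an SD of 0.14. Hoxb7 (1.91), Hoxb6 (1.88), Hoxb8 (1.65), Hoxb3 (1.59) and Hoxb9 (1.03) made a lower tier, and Hoxb13, at the far end, had 0.79. The 2 features of Hoxb3 were at 1.17 and 2.02.

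In HoxA, 4 of 10 genes were at least 2-fold higher, against 2.52% of all genes: Hoxa3 (3.67), Hoxa5 (2.29), Hoxa7 (1.43) and Hoxa2 (1.12). Between them stood Hoxa4 at 0.71 and Hoxa6 at -0.06, so the order along this cluster was not smooth. Paralogs from Hoxa9 on lay between -0.24 (Hoxa11) and 0.38 (Hoxa10). HoxC had Hoxc4 at 1.81 and Hoxc9 at 1.13, with Hoxc5 at 0.53, Hoxc6 at 0.06 and Hoxc8 at 0.18 between them. In HoxD 1 of 9 genes was past 2-fold, Hoxd8 at 1.21, while 5 were past 1.5-fold, among them Hoxd9 (0.92), Hoxd1 (0.86) and Hoxd4 (0.82). Low-numbered paralogs are those expressed toward the hindbrain, and the 6 highest Hox ratios belonged to Hoxb2, Hoxa3, Hoxb4, Hoxb1, Hoxb5 and Hoxa5. Of the 38 measured Hox genes 32 rest on 1 feature.

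**Figure D2:**
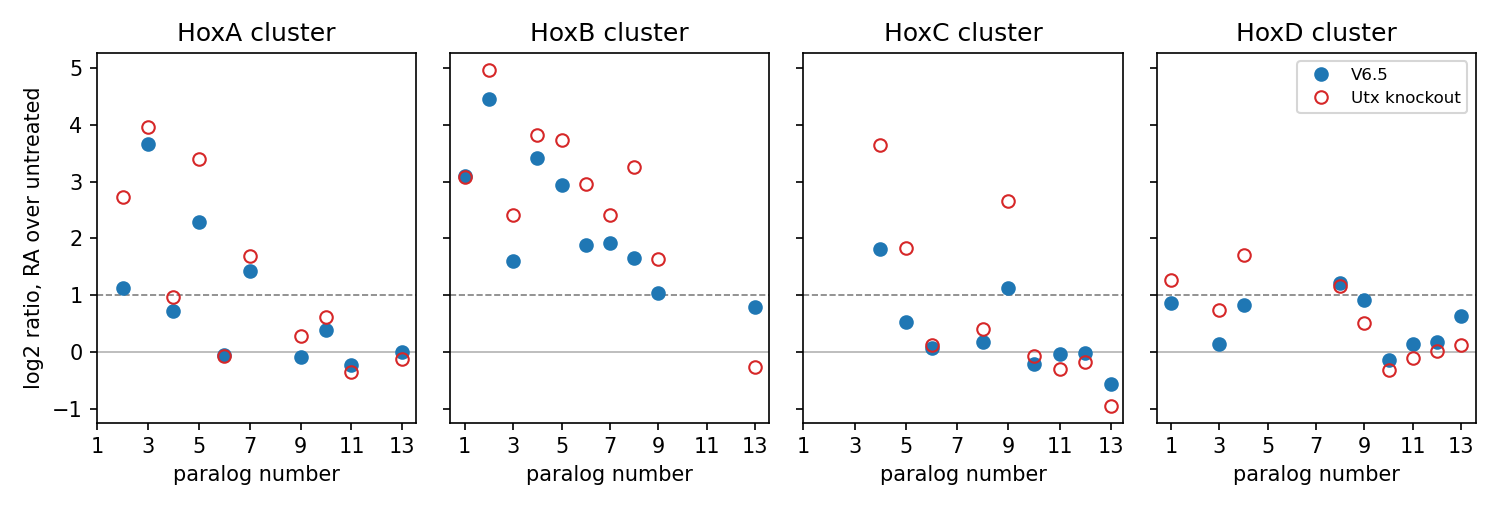
Log2 ratio (RA-treated over untreated) against paralog number for the measured genes of the 4 Hox clusters, filled points for V6.5 and open points for the Utx knockout, dashed line at 2-fold. In V6.5 the HoxB points lie between 4.45 at paralog 2 and 0.79 at paralog 13, and HoxC and HoxD reach 1.81 and 1.21 at most.

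Some genes near the ends of HoxB also had raised ratios. The 4 measured genes beyond each end of each cluster were taken in RefSeq order, a choice made after the HoxB values were seen. Beyond the Hoxb13 end, Ttll6, a tubulin-modifying enzyme, had 1.67 and Calcoco2, an autophagy receptor, had 2.23, and the next gene, Ube2z, had -0.23. Beyond the Hoxb1 end, 2 genes with placeholder names had 0.03 (Gm11531) and -0.01 (Gm11529), and the third, the immune adaptor Skap1, had 3.05. The Utx knockout array gave 1.36, 2.03 and 3.32 for Ttll6, Calcoco2 and Skap1. Of the 24 genes beside HoxA, HoxC and HoxD, 0 were past 2-fold, with a range from -0.54 (Hibadh, beside HoxA) to 0.38 (Hnrnpa2b1, beside HoxA). Over all genes 2.52% were higher and 1.59% lower at that bound, so 0 of 24 is near the share over all genes.

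Hox proteins bind DNA with partners of the Meis, Pbx and Pknox families. Of 10 measured genes of these families and their Tgif relatives, 4 were at least 2-fold higher, against 2.52% of all genes. Meis1 had 2.22, Meis2 2.03, Pknox2 1.36 and Pbx3 1.10. Pbx2 had 0.69, while Pknox1, Tgif1 and Tgif2 lay between -0.51 and -0.18. Cdx1, a homeobox gene upstream of Hox genes and a known RA target, had 1.94, against 0.13 for Cdx2 and 0.15 for Cdx4.

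Markers that place cells along the head to tail axis went both ways. Otx2, the forebrain and midbrain factor that is also a primed pluripotency gene, was 4.23-fold lower (-2.08), and Hesx1, another anterior homeobox gene, had -1.68. Irx3, expressed in the caudal neural plate, had 1.66. Msx2 and Tlx2 had 1.25 and 1.03. The hindbrain genes Egr2 and En2 had -0.48 and -0.19, and Epha4, an Eph receptor of rhombomeres, had -1.60. Cell guidance genes were split in the same way. The ligand Efnb1 had 2.08 and the semaphorin Sema3e 2.15, while Nrp2, a semaphorin coreceptor, had -2.26 over 2 features at -2.39 and -2.13. Among 31 semaphorins, plexins, netrins, Slits and their receptors 3 were at least 2-fold higher and 1 lower, and among 19 ephrins and Eph receptors 1 and 1. Over all genes 2.52% were higher and 1.59% lower.

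Most naive pluripotency factors had ratios below 0, to unequal degrees. Of 29 measured genes, 2 were past 2-fold on the low side and 1 on the high side, while 10 were past 1.5-fold on the low side, and the list's median was -0.40. Klf4, a factor held up by STAT3, had -1.65 and Tcl1, a coactivator of Akt, had -1.38. Pou5f1, which encodes Oct4, had -0.94. Klf5 (-0.80), Zfp42 (-0.62), Tbx3 (-0.62), Esrrb (-0.61), Tfcp2l1 (-0.59) and Sox2 (-0.52) formed a middle group. Nanog, at 0.29, had features at -0.02 and 0.59, and Klf2 had 0.07. Dppa2, a chromatin factor of ES cells and early embryos, was the member past 2-fold on the high side (1.16), and Fbxo15 had 0.93. At 48 h the ES cell markers therefore did not have a common direction.

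Genes of the LIF arm lay mostly below 0. Of 18 genes of the LIF receptor and STAT3 targets, 15 lay below 0, with a median of -0.51. At 2-fold, 4 were lower and 0 higher, against 1.59% and 2.52% of all genes. These 4 were Klf4, the receptor Lifr (-1.33 over 3 features), Socs3, the feedback inhibitor of STAT3 (-1.26), and the adhesion molecule Icam1 (-1.17). Il6st, the shared signal transducer, had -0.51. Genes of the formative and primed states went in both directions, 3 of 19 higher and 3 lower: Sall2 (1.41), Fgf5 (1.16) and Zic2 (1.06) against Otx2, Foxd3 (-1.45) and Etv5 (-1.17).

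Signalling pathways were marked by single members more than by whole lists. In BMP signalling 5 of 23 targets were at least 2-fold higher, against 2.52% of all genes, but 11 lay below 0 and the median was 0.03. Among the 5 were the inhibitors of differentiation Id2 (1.64), Id3 (2.82-fold) and Id1 (1.04), with Gata3 at 2.15, while the related Id4 had -1.43. Lefty1, the secreted antagonist of Nodal, had 2.29, whereas Lefty2 had -0.06, Nodal 0.71 and the activin subunit Inhba -1.16. In the FGF list, Fgf5 stood against Fgf17 (-1.38), Fgf4 (-0.64) and the ERK-responsive factors Etv5 and Etv4 (-1.17 and -0.85). The Notch list had 0 of 21 members at least 2-fold higher, near the 2.52% of all genes. In this list 3 were lower, against 1.59% of all genes: Notch4 (-1.68), Hes6 (-1.06) and the ligand Jag1 (-1.05). Hedgehog effectors Gli2 and Gli1 had -1.35 and -0.96, and Gli3, mainly a repressor, had 0.74.

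Among Wnt genes the targets Axin2 and Lef1 had 0.15 and -0.66, on opposite sides of 0. Sfrp5, a secreted antagonist, had 1.44, and the ligands Wnt9a and Wnt8a had 1.27 and 1.01. Wnt5a, a ligand of the non-canonical branch, had -1.47, and the receptor Fzd5 had -1.06 against 1.05 for Fzd6. Immediate early genes had 1 of 16 members past 2-fold, Jun at 1.00, with Fos at -0.26 and Egr1 at -0.64. Of 15 Hippo and YAP targets 0 were past 2-fold, which is near the shares of all genes (2.52% higher and 1.59% lower).

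**Figure D3:**
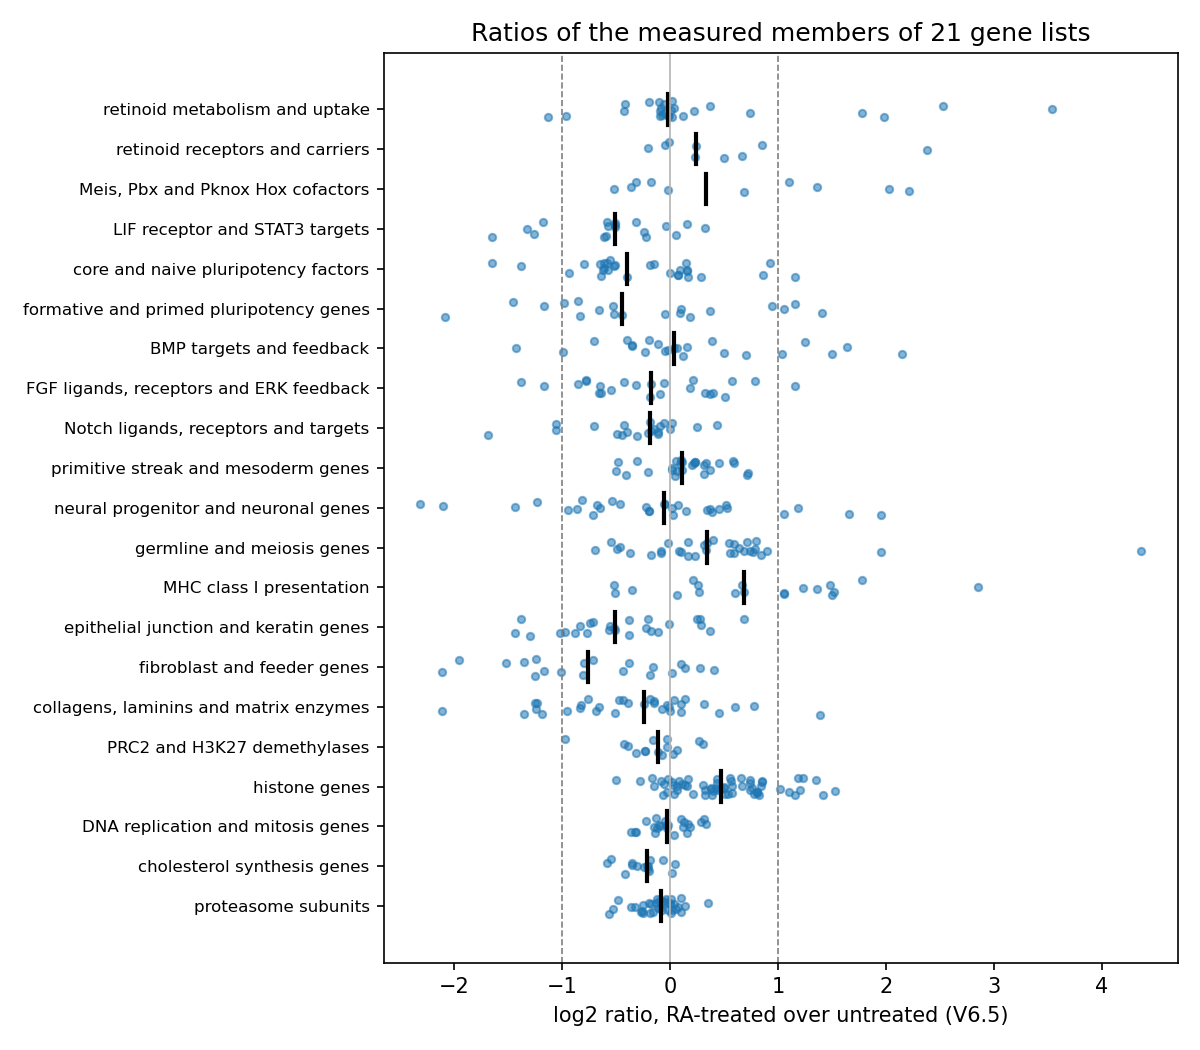
Log2 ratios of the measured members (points) of 21 gene lists on the V6.5 array, with the median of each list as a black bar and dashed lines at 2-fold. The lowest median is that of fibroblast and feeder genes at -0.76 and the highest that of MHC class I presentation at 0.69, while replication genes and proteasome subunits stay close to 0.

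Lineage genes lay on both sides of 0. In the neural list of 31 measured genes 4 were at least 2-fold higher and 4 lower. Sox3 (1.96), a factor of neural progenitors, Irx3, the receptor Ret (1.19) and Zic2 were on the high side. The neuronal genes Neurod1 (-2.31), Gad1, the GABA-synthesising enzyme (-2.11), Crmp1 (-1.43) and Stmn2 (-1.23) were on the low side, while the early neural factors Sox1 and Pax6 had 0.03 and 0.37. Of 27 measured primitive streak and mesoderm genes 0 were past 2-fold in either direction, near the shares of all genes (2.52% higher and 1.59% lower). Mixl1, Eomes and Gsc had 0.10, 0.23 and 0.32. The listed streak gene T was not matched to a measured symbol, so it is not in this count.

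In endoderm, the pioneer factor Foxa1 was 8.50-fold higher (3.09), but its relatives Foxa2 and Foxa3 had -0.24 and -0.05 and Sox17 had -0.32. Lrp2, an endocytic receptor of visceral endoderm, had 1.05. Among trophoblast genes Gata3 stood at 2.15, while Cdx2, Eomes and Elf5 had 0.13, 0.23 and 0.12. Among 20 endothelial and blood genes the receptor Tie1 was past 2-fold (1.63). Wt1, a factor of the intermediate mesoderm and gonad named after its value was seen, had 2.98.

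Germline and meiosis genes had many small ratios above 0. Besides Stra8, the meiotic cohesin Rec8 had 1.95, so 2 of 33 were at least 2-fold higher and 0 lower, against 2.52% and 1.59% of all genes. At 1.5-fold there were 13 higher and 1 lower, which is a larger share than the 6.69% of all genes higher at that bound, although the list was chosen with earlier results known. Sycp1, a synaptonemal complex protein, had 0.77, Dazl 0.71 and Ddx4, the germ cell helicase, 0.64. Other genes of meiosis did not follow, with Sycp3 at -0.49, Stag3 at -0.47 and Spo11 at -0.02. In the Mage family 1 of 24 genes was past 2-fold, the imprinted Magel2 (2.37), with a family median of 0.02. In the Rhox family, X-linked homeobox genes of reproductive tissue, 2 of 10 were, Rhox10 (1.76) and Rhox13 (1.11), with a median of 0.25.

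Leaving aside placeholder names such as Gm4340 (5.10) and Gm13043 (4.75), the 4 highest ratios belonged to the Zscan4 family, which marks the 2-cell-like state, a rare and transient condition in ES cell cultures in which genes of the 2-cell embryo are on. All 5 measured Zscan4 genes lay between 3.70 and 4.82, and Zscan4c had 3 features from 3.99 to 5.36. To show how similar such copies can be, the promoters of Zscan4c and Zscan4f are given. The 250 bases before the starts of Zscan4c and Zscan4f in RefSeq build GRCm38.p6 share an unbroken run of 127 bases, in capitals.
Zscan4c (chr7:11005495-11005744, plus strand): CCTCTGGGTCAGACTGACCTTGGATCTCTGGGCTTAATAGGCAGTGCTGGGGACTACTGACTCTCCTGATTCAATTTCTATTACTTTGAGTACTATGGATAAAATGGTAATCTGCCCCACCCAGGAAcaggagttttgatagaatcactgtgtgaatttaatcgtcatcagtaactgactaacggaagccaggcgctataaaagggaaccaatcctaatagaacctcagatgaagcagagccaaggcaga
Zscan4f (chr7:11397665-11397914, plus strand): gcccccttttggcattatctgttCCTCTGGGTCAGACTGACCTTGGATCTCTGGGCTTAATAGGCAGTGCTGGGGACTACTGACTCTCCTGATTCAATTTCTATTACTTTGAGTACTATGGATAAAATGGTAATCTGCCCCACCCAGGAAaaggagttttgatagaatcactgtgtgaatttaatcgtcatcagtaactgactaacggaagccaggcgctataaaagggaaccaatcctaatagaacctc
Near-identical copies can share signal between their probes, which makes each copy's own ratio uncertain, here and in the families that follow.

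Not every gene of these families was high. Of 34 measured Pramel genes, 13 were at least 2-fold higher, from Pramel34 (1.34) to Pramel39 (4.49), and 0 were lower, while 19 lay within 1.5-fold. Over all genes 2.52% were higher and 1.59% lower at 2-fold. Pramel39, Pramel28 (4.46), Pramel20 (4.40) and Pramel31 (4.36) stood beside Pramel12 (-0.02), Pramel13 (-0.07) and Pramel27 (-0.24). All 6 Usp17l genes, which encode deubiquitinases, were past 2-fold, from 1.69 to 4.27, though the 2 features of Usp17la gave -0.35 and 3.74. The 4 Tcstv genes lay between 2.86 and 3.98. Of 8 Obox genes, 2 pseudogenes of Obox4 were past 2-fold, at 3.26 and 3.22, and of 7 Tdpoz genes 1 (Tdpoz2, 1.05). At 1.5-fold 5 Obox and 5 Tdpoz genes were higher, against 6.69% of all genes, and the family medians were 0.63 and 0.71. A list of 7 further genes of the 2-cell state and their relatives had 2 members at least 2-fold higher and 0 lower. These 2 were Arg2, the mitochondrial arginase (2.94), and Tmem92 (4.06), while Zfp352 had -0.29. Eif1a, listed for its 2-cell relatives and not itself a marker of that state, had -0.24.

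Many of these genes are neighbours. In the RefSeq order of 21948 measured genes, 115 of 560 genes at least 2-fold higher (20.5%) stood next to another such gene. The same held for 29 of 348 lower genes (8.33%). Over all genes 2.52% were higher and 1.59% lower, so these shares have different baselines. The share expected from gene order alone was not computed. There were 15 runs of 3 or more neighbours past 2-fold in 1 direction, 12 higher and 3 lower. The longest ran over 10 genes from Hoxb9 to Hoxb1 with the antisense gene Hoxb5os (1.75). The second held the Tcstv genes and 4 further genes, 8 in all, from 1.26 (AF067063) to 4.32 (Gm20767). The third held Tmem92 and 6 genes with placeholder names, 1.38 (Gm11546) to 4.06. Others were the 5 Zscan4 genes, 2 runs of Pramel genes, 2 runs of genes that all have placeholder names, and the pair of Duxbl genes, Duxbl1 (1.97) and Duxbl2 (2.41), with 2 genes between them.

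Other runs included those of the MHC and of interferon-induced GTPases. The 6 genes H2-Q2 to H2-Q10 lay between 1.14 and 2.02, and Gbp3, Gbp2b and Gbp2 had 2.46, 1.98 and 2.82. Cpeb1 (1.15), Ap3b2 (2.33) and BC048679 (3.30) formed another. The 3 lower runs were Klk1b24, Klk1b5 and Klk1, Ly6g6c, Ly6g6d and Ly6g6e, and Tmprss13, Fxyd6 and Fxyd2. In the last of these Tmprss13, a membrane protease, had -1.84, and Fxyd6 and Fxyd2, regulators of the sodium pump, had -1.53 and -1.46. Neighbours of 1 family may share probe signal.

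**Figure D4:**
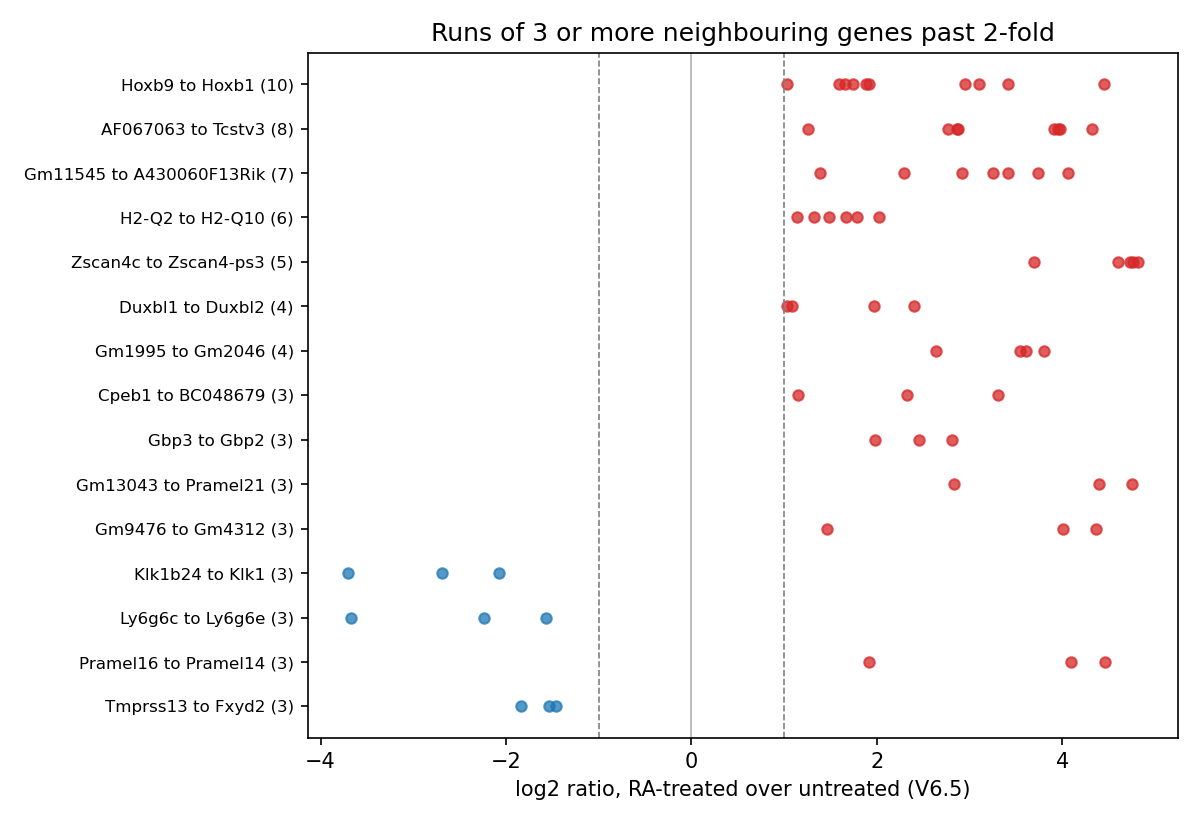
Log2 ratios on the V6.5 array of the genes in the 15 runs of 3 or more neighbouring measured genes past 2-fold in 1 direction, with the first and last gene and the number of genes of each run on the left axis, red for higher and blue for lower. The run from Hoxb9 to Hoxb1 spans 1.03 to 4.45 and the Zscan4 run 3.70 to 4.82.

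The shares past 2-fold can also be given by kind of gene. Of 891 pseudogenes 36 (4.04%) were at least 2-fold higher and 2 (0.224%) lower, of 19483 protein-coding genes 509 (2.61%) and 325 (1.67%), and of 1475 long noncoding RNAs 13 (0.881%) and 20 (1.36%). Probes of pseudogenes can take signal from their parent genes. By chromosome, the share of genes at least 2-fold higher ran from 1.10% (chromosome 19) to 3.93% (chromosome 12), leaving out Y with 29 genes.

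Among the immune lists, that of antigen presentation held the most members with high ratios. Of 19 measured genes of MHC class I presentation, 9 were at least 2-fold higher and 0 lower, with a median of 0.69. Over all genes 2.52% were higher and 1.59% lower at that bound. The immunoproteasome subunits Psmb8 and Psmb9 had 2.85 and 1.37, the peptide transporter subunits Tap2 and Tap1 1.23 and 0.67. The heavy chain H2-K1 was measured by 11 features between 1.35 and 1.63 (SD 0.089), and H2-D1 had 1.06. B2m, the light chain that all class I molecules need, had 0.06, and the activator Nlrc5 had 0.22. Of 20 interferon response genes 2 were higher, Gbp2 and Rsad2 (1.11), and 1 was lower, the RNA sensor Ddx58 (-1.09), while Ifit1 and Ifit3 had 0.32 and 0.36 and Oas1a -0.33. Oasl2, outside the list, had 3.04. The chemokine Cxcl10 had 1.26, in a family of 51 chemokines and receptors with 3 members at least 2-fold higher and 1 lower. The cytokine Il33 had 1.86, but of 79 interleukins and receptors 2 were higher and 0 lower, near the shares of all genes. Both families had a median of -0.01.

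Histone genes lay mostly above 0. Of 63 measured histone genes, 9 were at least 2-fold higher and 0 lower, 23 were at least 1.5-fold higher, and 54 of 63 lay above 0, with a median of 0.48. Over all genes 2.52% were at least 2-fold higher, 1.59% at least 2-fold lower and 6.69% at least 1.5-fold higher. H3c15 had 1.53, H1f4 1.42, H2bc4 1.36, H1f10 1.23 and H2aw 1.21. Canonical histone messages end in a stem-loop and are normally made without a poly(A) tail, and the cRNA of these samples was primed with oligo-dT. Of 24 DNA replication and mitosis genes 0 were past 1.5-fold, the range was -0.36 to 0.33, and Mcm2, Mcm3 and Pcna had 0.12, 0.10 and -0.32. On the knockout array the histone list had a median of 0.12 and 3 genes at least 2-fold higher.

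Few chromatin regulators were past 2-fold, as were few of all genes (2.52% higher and 1.59% lower). In lists as short as these a count of 0 is near that share. Of 15 genes of PRC2 and the H3K27 demethylases 0 were past 2-fold, with Kdm6a at -0.39, Kdm6b at 0.07 and the accessory subunit Phf19 lowest at -0.97. Of 20 PRC1 subunits and 14 genes of the MLL complexes with partners of UTX, 0 and 0 were past 2-fold, with Bmi1 at 0.59. The DNA demethylase Tet1 had -0.98 and Dnmt3l, a cofactor of DNA methylation in germ cells, -0.97, and 0 of 16 genes of this list were past 2-fold. Hdac9 (1.01) was the single member of 23 remodelers and deacetylases past it.

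On the low side, genes of mesenchymal and fibroblast matrix were grouped. Of 20 fibroblast and feeder genes 8 were at least 2-fold lower and 0 higher, against 1.59% of all genes lower, with a median of -0.76 and a range of -2.12 to 0.41. Lox, which crosslinks collagen, had -2.12, S100a4 -1.95, the intermediate filament Vim -1.52, Col3a1 -1.35, Col1a2 -1.25, Col1a1 -1.24, the fibronectin gene Fn1 -1.17 and Postn -1.01. Thy1 had -0.80, Lum -0.19 and Pdgfrb 0.01, so markers of the list were not uniformly lower. The labels give growth on gelatin, and the part of other cells in these ratios was not tested, because a ratio does not give a marker's level. The tissue inhibitors Timp1 and Timp3 had -1.23 and -1.19, and Pcolce, a collagen processing enhancer outside the lists, had -2.23. Mmp9, a gelatinase, was an exception at 1.39 over 10 features between 1.26 and 1.51.

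Epithelial genes were split, with more members below 0 than above. Of 26 genes of junctions and keratins 4 were past 2-fold on the low side and 0 on the high side, 10 were at least 1.5-fold lower, 21 of 26 lay below 0, and the list's median was -0.51. These 4 were the polarity gene Crb3 (-1.44), the transcription factor Grhl3 (-1.38), Cldn7 (-1.29) and the splicing factor Esrp1 (-1.02). Cdh1, the cadherin of ES cells, had -0.88 and Epcam -0.71, while Krt8 and Krt18 had 0.29 and 0.37 and the junction scaffold Tjp1 0.69. The mesenchymal list had 0 of 16 members at least 2-fold higher and 2 lower, Vim (-1.52) and Fn1 (-1.17). Cdh2 had 0.10, Snai1 0.24, Zeb1 0.77 and Zeb2 0.31. In the whole keratin family 3 of 53 genes were at least 2-fold higher, among them Krt20 (2.28) and Krt23 (2.26), and 1 lower, with a median of 0.06. In the claudin family 0 of 34 were higher and 2 lower. Over all genes 2.52% were higher and 1.59% lower at that bound. On the knockout array the median of the epithelial list was -0.02.

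The 4 genes at least 8-fold lower were Klk1b5 (13.1-fold lower) and Egfbp2 (12.9-fold), serine proteases of the kallikrein family, Ly6g6e (12.8-fold), a small surface protein encoded in the MHC, and Glod5 (12.6-fold). In the Klk1 group of the kallikrein family 6 of 14 genes were at least 2-fold lower, against 1.59% of all genes. The other 8 lay between -0.11 (Klk1b21) and 0.34 (Klk1b27). Klk1b26 had features at -3.34 and -0.01. Other low genes were Lrrc2 (-2.54), the phospholipase Pla2g7 (-2.42), the glutathione peroxidase Gpx2 (-2.37), the organic anion transporter Slco4a1 (-2.31), the nucleotide transporter Slc17a9 (-2.28), the G protein subunit Gna14 (-2.24), Irak3, a brake on Toll-like receptor signalling (-2.11), and the epoxide hydrolase Ephx2 (-2.10).

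Several low genes were measured many times. Liph, a lipase, had -1.92 over 10 features between -2.15 and -1.74. Cpt1a, which carries fatty acids into mitochondria, had -1.32 over 11 features between -1.47 and -1.18. Akr1b8 (-1.19), Fcgr2b (-1.07) and Ptgs2 (just under 2-fold lower), each with 10 features, had SDs of 0.071, 0.088 and 0.091. On the high side the same holds for Hoxb1, H2-K1 and Mmp9 above, and for Fam162b (1.38, SD 0.20). Lgals4, a gut lectin, had 2.99 with 3 features between 2.69 and 3.28. Conversely, 17 genes past 2-fold had features at least 3-fold apart, among them the casein gene Csn3 (2.26, features at 0.07 and 4.46), Sp110 (1.85, from 0.67 to 3.32), the cardiac myosin Myh6 (1.08, 0.01 and 2.16) and the netrin receptor Dcc (1.04, from -0.30 to 2.02). For Csn3, Myh6 and Dcc the mean is past 2-fold while at least 1 feature is within 1.5-fold.

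Most lists of growth and metabolism genes had few members past 2-fold, a bound that 2.52% of all genes passed on the high side and 1.59% on the low side. Of 18 fatty acid and lipid genes, however, 3 were at least 2-fold lower and 1 higher, with a median of 0.18. Of 36 proteasome subunits, 78 cytosolic and 82 mitochondrial ribosomal proteins 0 were past 2-fold. Of 15 cholesterol synthesis genes 0 were past 1.5-fold and 13 lay below 0, with a median of -0.22 and a lowest value of -0.58 (Cyp51). The D cyclins went apart, with Ccnd1 at -1.04, Ccnd2 at 1.03 and Ccnd3 at 0.05, and of the Myc genes Mycn had -1.41, Myc -0.23 and Mycl -0.21. In glucose use the transporter Slc2a3 had 1.04 and hexokinase Hk1 -1.28. Ldhb, the heart form of lactate dehydrogenase, had -2.02, and its pseudogene Ldhb-ps, whose probe may read the same message, -1.89. Of p53 targets and apoptosis genes Casp8 (1.23) was past 2-fold, and Cdkn1a had -0.51. Housekeeping genes lay between -0.53 (Tfrc) and 0.44 (Gusb), with Actb at -0.07 and Gapdh at 0.18.

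The knockout array offers a second measurement of cells given the same medium and RA. Both arrays may carry a dye bias of the same sign, and they differ in genotype. Of the 566 genes at least 2-fold higher in V6.5, 381 were also at least 2-fold higher in the knockout, which is 67.3% of the V6.5 list and 58.1% of the 656 knockout genes (2.92% of all). Of the 358 lower genes 214 were shared, 59.8% of the V6.5 list and 57.7% of the 371 knockout genes (1.65% of all). At larger bounds in V6.5, 115 of 126 higher genes at 4-fold and 54 of 54 at 8-fold were at least 2-fold higher in the knockout, and 25 of 27 and 4 of 4 lower genes were at least 2-fold lower there. By sign alone, 557 of 566 and 350 of 358 were alike, and 9 and 8 genes had the opposite sign. Between the arrays, the median absolute difference was 0.43 over the higher and 0.34 over the lower genes.

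**Figure D5:**
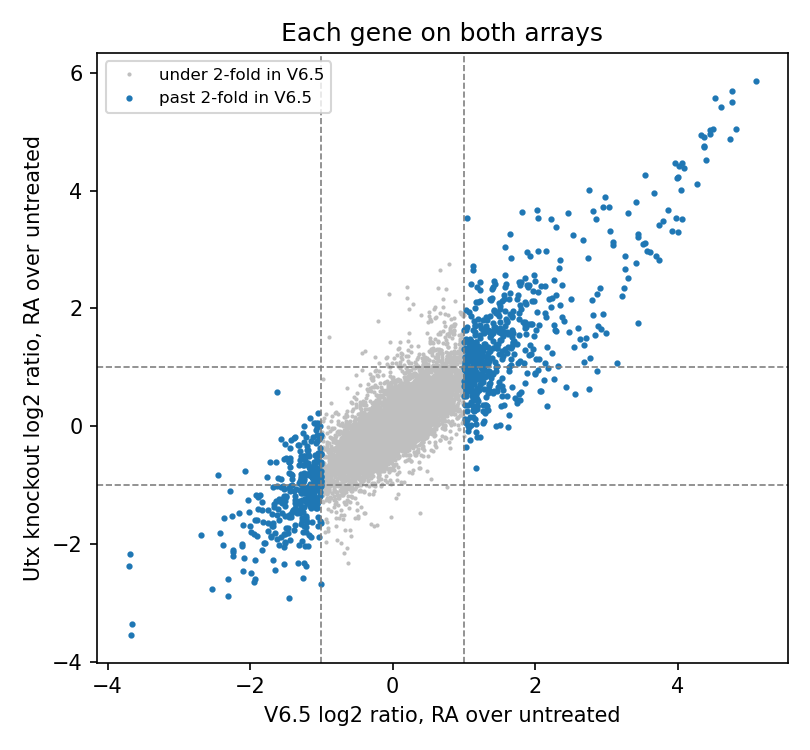
Log2 ratio in V6.5 against that in the Utx knockout for each of 22485 genes, in blue where the V6.5 ratio is past 2-fold, with dashed lines at 2-fold on both axes. Blue points beyond 8-fold in V6.5 all lie past 2-fold in the knockout, while those close to the V6.5 bound spread from below 0 to over 2 in the knockout.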

How the data were processed

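Total RNA of V6.5 ES cells before and after RA was compared on 1 Agilent array, with 200 ng of RNA labelled per sample by oligo-dT primed amplification, per the labels' protocols. The values deposited for each feature were read as a log2 ratio. The authors' scale, base and direction are not stated with the values: the base was inferred from their range, the direction from the dyes in the labels (Cy5 treated, Cy3 untreated), and each column has a mean of 0, so the array was centred on its mean. Limma is named in the submitters' processing notes, while its role and the steps of background correction and normalization between dyes are not given in the sources used. Without intensities the signal over background is unknown, and having 1 array limits precision.

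Symbols came from the platform annotation, and 11371 features without a symbol were left out of gene counts. The features of a gene were averaged. Genes were ordered by, and promoters taken from, RefSeq GRCm38.p6, in which 21964 genes matched by Entrez number. No test was made, since 1 array has no replicate. The genes named are the 20 highest and 20 lowest with proper names, the 10 highest and 10 lowest with 3 or more features of 1 sign, the first 3 and up to 6 extreme members of 101 gene lists, and runs of 3 or more neighbours. Other genes named were chosen after their values were seen. The members and lists were chosen with earlier results of these data known, and some name patterns were narrowed and 1 gene dropped after matching. Counting and averaging were tested on simulated data. Alternatives were other summaries of features, other centring, bounds of 1.5 and 3, and smaller gene sets. Python 3.11.15, numpy 2.4.6, pandas 2.3.3 and matplotlib 3.10.9 were used.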

Additional observations from a re-analysis of the deposited data

Results flagged for a closer look

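Genes past 2-fold in V6.5 with the opposite sign on the Utx knockout array were flagged, and no difference between the lines was tested. On the high side in V6.5, Trim67 had 1.62 against -0.01 in the knockout, Gypc 1.23 against -0.19, Elobl 1.18 against -0.18, Cidea 1.18 against -0.70, Ppbp 1.17 against -0.09, 2310040G24Rik 1.08 against -0.24, Gm5590 1.08 against -0.02, H2-M10.4 1.06 against -0.08 and Pdzph1 1.03 against -0.35. On the low side, Ltb had -1.63 against 0.59, Rab25 -1.25 against 0.00, Slc1a3 -1.16 against 0.14, 1700011M02Rik -1.10 against 0.06, Gng13 -1.08 against 0.06, Wnt6 -1.05 against 0.23, Klk8 -1.05 against 0.05 and Esrp1 -1.02 against 0.01. Most knockout values lie within 0.25 of 0, and the clearest contrasts are Ltb, a lymphotoxin subunit, and Cidea, a lipid droplet protein.

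Medians of 4 gene lists that were at least 0.1 from 0 in V6.5 had the opposite sign in the knockout, again with no test: Nodal, Lefty and Cripto signalling (-0.14 against 0.03), FGF ligands, receptors and ERK feedback (-0.18 against 0.14), fatty acid and lipid genes (0.18 against -0.02) and glutathione transferases (-0.26 against 0.07).

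Features without a gene symbol, which the comparisons above do not use, also held large ratios. Of 11371 such features, 335 (2.95%) were past 2-fold on the high side and 158 (1.39%) on the low side, with a highest ratio of 5.20 and a lowest of -3.58.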

How the results depend on the processing

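The counts of 566 higher and 358 lower genes past 2-fold stayed within 1.5 times under 5 alternatives. They were 566 and 361 with the median of a gene's features, 532 and 335 with the feature nearest to 0, 611 and 327 when centred on the median over features, 652 and 297 when centred on the housekeeping genes, and 487 and 328 without placeholder names. They moved to 1504 and 1205 at a bound of 1.5-fold, to 213 and 75 at 3-fold, and to 87 and 65 over genes with 2 or more features of 1 sign, which drops the 16347 genes with 1 feature. All 101 list medians moved by less than the median feature spread of 0.14 under the median of features. That setting can change only genes with 3 or more features. Median centring adds 0.03 to each ratio, so no list median could move by 0.14 under it. Named genes were held to the SD of their own features, or to 0.14 where they had 1 feature. By the median of features, 5 of 278 moved by 0.14 or more, though within that SD: Dcc (1.04 to 1.39), Pramel34 (1.34 to 1.65), Sp110 (1.85 to 1.55), Zscan4c (4.82 to 5.10) and Dab1 (-1.33 to -1.56). Under median centring, 275 of 278 stayed within that SD, and Pramel31 (4.36 to 4.39), S100a4 (-1.95 to -1.92) and Slc13a5 (-1.25 to -1.22) moved past it. Because the shift is the same for every gene, these counts show only which genes have a feature SD below the shift. No paired analysis was possible because each line has 1 array and the labels carry no replicate numbers.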
